A study of Mus musculus with 18 samples.

Results

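The 8 genes described here are 4 receptors for fibroblast growth factors (FGFs), Fgfr1, Fgfr2, Fgfr3 and Fgfr4, and 4 of their ligands, Fgf1, Fgf2, Fgf7 and Fgf10. They were chosen by name from the 57126 genes of the count table and were followed in all 18 mammary tumors. All 8 were among the 22481 genes with enough counts to be tested over the 18 tumors. Levels are given as CPM, counts scaled to the size of each library, with library sizes adjusted by the trimmed mean of M values.

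The tumors grew in female F1 mice of BALB/c and C57BL6/J parents whose mammary ducts had been injected with an adenovirus carrying Cre recombinase (Ad-Cre) at 10 to 12 weeks of age. Cre left ductal epithelial cells with p53R172H and no other Trp53 allele (MaP R172H/-, 7 tumors of 7 mice), with p53R245W and no other allele (MaP R245W/-, 5 tumors of 5 mice), or with no p53 (MaP -/-, 6 tumors of 4 mice, of which JM663 and JM833 each gave 2). Stroma and immune cells in these tumors keep wild-type Trp53, and no p53 wild-type tumor was among the samples. A Rosa26LSL-TdTomato/+ reporter was also carried by 3 mice of the MaP R172H/- group and 3 of the MaP R245W/- group. Tumors are called by the mouse names in the labels, with T1 and T2 for tumors of 1 mouse. The MaP R172H/- libraries were sequenced on a HiSeq 4000 with 76 nt reads and the others on a NovaSeq 6000 with 100 nt reads. The study also typed the MaP R172H/- tumors as luminal B or HER2-enriched and the others as triple-negative, so that p53R172H, platform and subtype cannot be told apart. For 2 MaP -/- mice, JM779 and JM836, the labels name the T1 tumor where the study lists the T2 tumor as sequenced, and which histology belongs to them was not settled here.

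FGFs bind receptor tyrosine kinases together with heparan sulfate chains, and the activated receptor passes the signal through the docking protein Frs2 to the Ras and MAPK cascade, which in turn raises feedback inhibitors such as the Sprouty and Spred proteins. Fgf7 and Fgf10 are made by mesenchymal cells and act on the epithelial splice form of Fgfr2, while Fgf1 and Fgf2 bind several receptors. In the mammary gland, Fgf10 and Fgfr2 are needed for the mammary buds and for growth of the ducts, and FGFR1 is often amplified in human breast cancer. The counts are per gene, so the epithelial and mesenchymal splice forms of the receptors were not separated.

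Total counts lay between 23113578 and 37365062 per tumor. Trp53, the targeted gene, ranged from 10.8 to 50.3 CPM in MaP R172H/-, from 9.09 to 59.0 CPM in MaP R245W/- and from 9.43 to 21.6 CPM in MaP -/- tumors. YZ11 with 10.8 CPM lay within the MaP -/- range, while the other 6 MaP R172H/- tumors had 41.4 CPM or more. JM1233 with 11.4 CPM also lay within that range, and RM0014 with 9.09 CPM below it. Its log2 fold change was 1.58 ± 0.311 (SE) for MaP R172H/- over MaP -/- tumors (edgeR quasi-likelihood test, adjusted p = 0.00794) and 0.95 ± 0.438 for MaP R245W/- over MaP -/- tumors (adjusted p = 0.426). All 10 epithelial markers had counts in every tumor, but 3 tumors, 1 in each group, had Epcam under 50 CPM: YZ7 with 24.6 CPM, JM1233 with 34.8 CPM and JM779-T1 with 10.3 CPM, against 259.2 CPM or more in the others. In these 3 tumors 9, 9 and 10 of the 10 epithelial markers were at 0.25 times or less of the median of the other 17. YZ4 was highest for 3 of the 4 basal epithelial markers, JM1126 for 7 of the 10 fibroblast markers, and JM833-T1 for all 10 adipocyte markers. In bulk tissue, fewer cells of a type and less RNA per cell cannot be told apart.

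Among the receptors, Fgfr1 dominated. Per kb of merged exon sequence (GENCODE M39), Fgfr1 led the 4 receptors in 18 of 18 tumors, with a median of 94.5% of their summed CPM per kb. The share fell below 60% in only 2 tumors, with 41.75% in YZ4 and 47.3% in YZ7. Fgfr2 took 39.8% of the sum in YZ4, 26.9% in YZ11 and 21.5% in JM833-T1, and Fgfr3 took 38.1% in YZ7. The median over 18 tumors was 23.4 CPM per kb for Fgfr1, 0.806 for Fgfr3, 0.428 for Fgfr2 and 0.0913 for Fgfr4. The ligands had no common leader: Fgf2 led in 9 tumors, Fgf1 in 6, Fgf7 in 2 and Fgf10 in 1. Their medians were 1.72 CPM per kb for Fgf2, 1.22 for Fgf1, 0.435 for Fgf7 and 0.0538 for Fgf10.

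**Figure D1:**
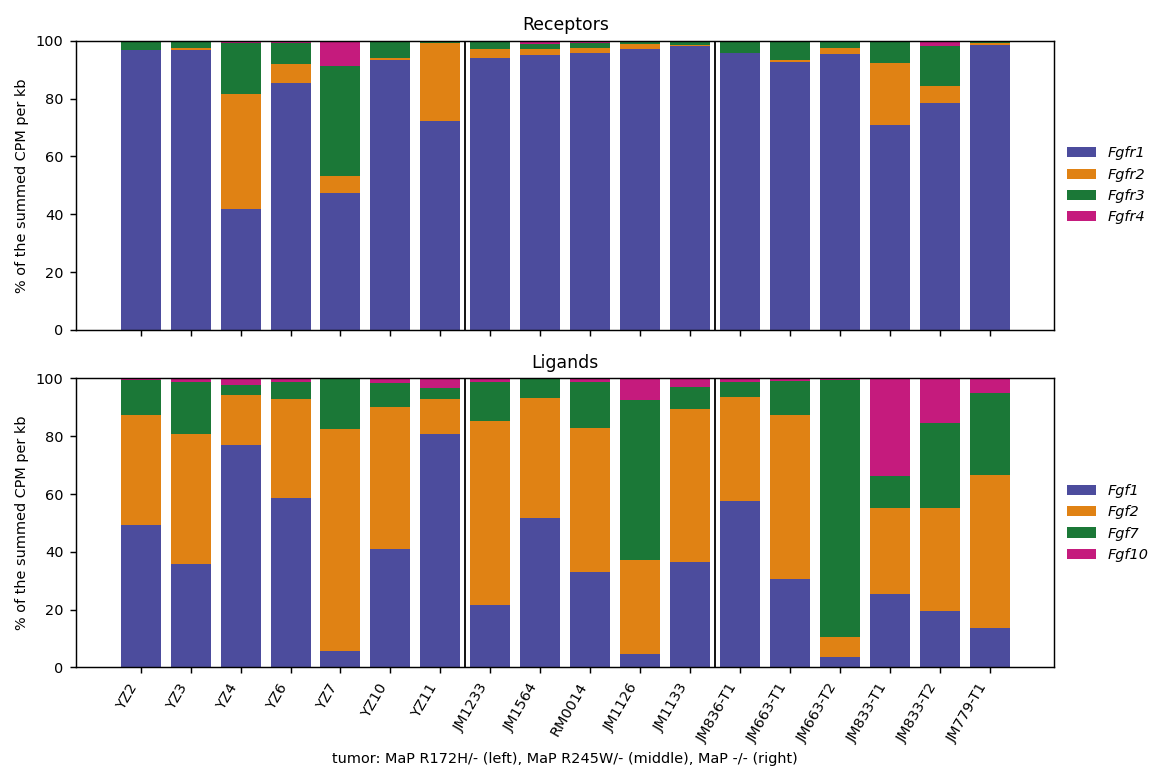
Share of each gene in the summed CPM per kb of the 4 receptors (top) and of the 4 ligands (bottom), as stacked bars from 0 to 100%, 1 bar for each of the 18 tumors. Fgfr1 is the largest receptor share in every bar, down to 41.75% in YZ4, and Fgf7 fills 88.9% of the ligand bar of JM663-T2.

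Fgfr1, on chromosome 8 (GRCm39, 26003670 to 26066824, plus strand), encodes a receptor found on both epithelial and mesenchymal cells. It was the steadiest receptor across the 18 tumors. MaP R172H/- tumors ranged from 80.6 CPM in YZ11 to 598 CPM in YZ10, with a median of 320.4 CPM. The 5 MaP R245W/- tumors had 278 CPM in JM1233, 231 CPM in JM1564, 233 CPM in RM0014, 416 CPM in JM1126 and 342 CPM in JM1133. MaP -/- tumors ranged from 152 CPM in JM833-T2 to 665 CPM in JM779-T1, with a median of 307 CPM. No tumor reached 4 times, or fell to 0.25 times, the median of the other 17. The means, 354 ± 199 CPM (SD, n = 6) in MaP -/-, 319 ± 159 CPM (n = 7) in MaP R172H/- and 299.8 ± 79.1 CPM (n = 5) in MaP R245W/- tumors, lay closer together than the spread within the groups. The log2 fold change was -0.14 for MaP R172H/- over MaP -/- tumors, with an interval of 2 SE from -0.99 to 0.71 (adjusted p = 0.875), and -0.24 for MaP R245W/- over MaP -/- tumors, from -0.98 to 0.50 (adjusted p = 0.814). The difference between the mutants was 0.09, from -0.72 to 0.90 (adjusted p = 0.916).

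Fgfr2, on the minus strand of chromosome 7, encodes the receptor of Fgf7 and Fgf10 in epithelium. Its canonical transcript runs from 129763471 to 129868272, and 1 of its 48 annotated transcripts extends the gene to 132725079, across many other genes. The gene was low in most tumors and very high in 1. In MaP R172H/- tumors it had 0.993 CPM in YZ2, 1.94 CPM in YZ3, 4.73 CPM in YZ10, 22.2 CPM in YZ6, 24.1 CPM in YZ7, 26.7 CPM in YZ11 and 229.8 CPM in YZ4. YZ4 stood far above every other tumor of its group, at 48.6 times the median of the other 17. MaP R245W/- tumors were all low, with 8.51 CPM in JM1233, 4.98 CPM in JM1564, 3.96 CPM in RM0014, 7.32 CPM in JM1126 and 1.298 CPM in JM1133. MaP -/- tumors ranged from 1.17 CPM in JM836-T1 over a median of 3.92 CPM to 55.2 CPM in JM833-T1. The other tumor of that mouse, JM833-T2, had 9.79 CPM. The medians of MaP R245W/- and MaP -/- tumors, 4.98 and 3.92 CPM, lay within the spread of either group.

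Fgfr2 did not pass the test in any comparison. MaP R172H/- over R245W/- tumors had the largest difference, a log2 fold change of 3.09 ± 1.26 (SE; adjusted p = 0.129), which was 1.37 without YZ4. DESeq2 gave 3.09 with adjusted p = 0.0260 for this comparison. Against MaP -/- tumors the values were 1.84 ± 1.22 for MaP R172H/- (adjusted p = 0.372) and -1.30 ± 0.932 for MaP R245W/- (adjusted p = 0.590). The first was 0.06 without YZ4 and 3.41 without JM833-T1, and the second was 0.28 without JM833-T1, so both depended on single tumors.

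Fgfr3, on the plus strand of chromosome 5 (33879018 to 33894412), encodes a receptor best known as a brake on bone growth. It was uniformly low in MaP R245W/- tumors, with 4.93 CPM in JM1233, 2.57 CPM in JM1564, 2.95 CPM in RM0014, 3.13 CPM in JM1126 and 2.21 CPM in JM1133. In MaP R172H/- tumors it spread widely, from 0.632 CPM (14 counts) in YZ11 over 5.93 CPM in YZ3, 8.29 CPM in YZ2, 19.5 CPM in YZ6 and 25.5 CPM in YZ10 to 79.3 CPM in YZ4 and 125 CPM in YZ7. All but YZ11 were above all 5 MaP R245W/- tumors. MaP -/- tumors lay between these groups in the mean, at 12.1 ± 6.76 CPM (SD, n = 6), with 13.7 CPM in JM836-T1, 18.6 CPM in JM663-T1, 3.43 CPM in JM663-T2, 14.3 CPM in JM833-T1, 18.5 CPM in JM833-T2 and 4.14 CPM in JM779-T1. Only the lowest of them, JM663-T2 and JM779-T1, overlapped the MaP R245W/- tumors.

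Fgfr3 was the 1 gene of the 8 that passed the test between the mutants, where 9.4% of 22481 genes did (2.91% higher). It was higher in MaP R172H/- than in MaP R245W/- tumors, with a log2 fold change of 3.57 ± 0.931 (SE; means of 37.7 and 3.16 CPM; adjusted p = 0.0223). Leaving out RM0014 or JM1133, 2 of the low tumors, gave 3.55 and 3.47 with adjusted p = 0.0525 and 0.0520, and the 12 mutant tumors fitted alone gave adjusted p = 0.0513. Without YZ7 the value was 2.88, and without YZ11, the tumor low in Trp53, it was 3.79 (adjusted p = 0.00560). MaP R245W/- tumors had 3.84 times less Fgfr3 than MaP -/- tumors in the fit, a log2 fold change of -1.94 ± 0.485 with an unadjusted p of 0.00183, but no gene passed that comparison in edgeR (adjusted p = 0.360). DESeq2 gave -1.89 with adjusted p = 0.00928. MaP R172H/- over MaP -/- tumors gave 1.67 ± 0.882 (adjusted p = 0.263).

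Fgfr4, on chromosome 13 (55300352 to 55316572, plus strand), encodes the receptor through which the liver senses Fgf15. It was hardly expressed outside YZ7, which had 14.6 CPM (331 counts), 8.14 times the next tumor, YZ4 with 1.79 CPM, and 38.7 times the median of the other 17. The other 5 MaP R172H/- tumors had between 0.0452 CPM (1 count, YZ11) and 0.783 CPM (YZ6). MaP R245W/- tumors had 0.299 CPM in JM1233, 1.02 CPM in JM1564, 0.688 CPM in RM0014, 0.0640 CPM in JM1126 and 0.573 CPM in JM1133. MaP -/- tumors ranged from 0 counts in JM779-T1, which allows up to 0.0970 CPM, over a median of 0.404 CPM to 1.32 CPM in JM833-T2. In 7 of the 18 tumors Fgfr4 had fewer than 10 counts, so differences at the low end were not detectable at this depth. The log2 fold changes of 2.39 ± 1.25 over MaP -/- (adjusted p = 0.258) and 2.24 ± 1.24 over MaP R245W/- tumors (adjusted p = 0.265) were 0.18 and 0.00 without YZ7, and MaP R245W/- over MaP -/- tumors gave 0.12 ± 0.819 (adjusted p = 0.965).

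**Figure D2:**
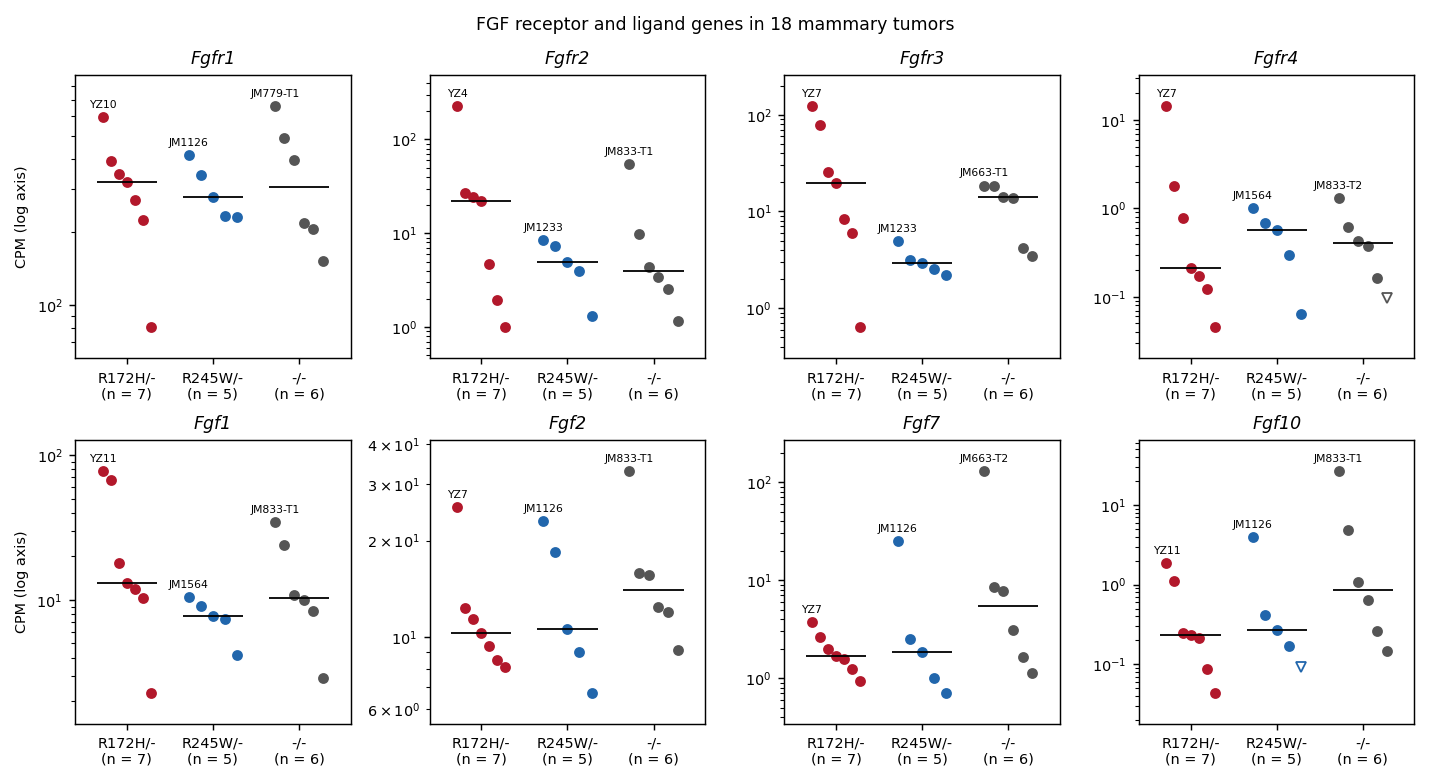
CPM of the 8 genes on log axes in each of the 18 tumors, by group, with the group median as a line, open triangles at the limit that a count of 0 allows, and the highest tumor of each group named. Fgfr1 and Fgf2 stay within 10 times across all tumors, whereas single tumors stand far above their group for Fgfr2 (YZ4), Fgfr4 (YZ7), Fgf7 (JM663-T2) and Fgf10 (JM833-T1).

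Of the ligands, Fgf1 (chromosome 18, 38971717 to 39077186, minus strand) encodes acidic FGF, which lacks a signal peptide and can bind all FGF receptors. It was high in YZ11, with 77.7 CPM, and YZ4, with 67.5 CPM, and between 2.29 CPM in YZ7 and 18 CPM in YZ6 in the other MaP R172H/- tumors. The 5 MaP R245W/- tumors were close together, with 7.73 CPM in JM1233, 10.4 CPM in JM1564, 7.40 CPM in RM0014, 4.16 CPM in JM1126 and 9.01 CPM in JM1133. MaP -/- tumors ranged from 2.88 CPM in JM779-T1 over a median of 10.4 CPM to 34.5 CPM in JM833-T1. The lowest values in the MaP R172H/- and MaP -/- groups were both in tumors with little Epcam. In the MaP R245W/- group this was not so, as the lowest tumor, JM1126, had 425.8 CPM of Epcam. The log2 fold change between the mutants was 1.89 ± 0.733 (adjusted p = 0.113; DESeq2 1.90, adjusted p = 0.0426). Against MaP -/- tumors it was 0.96 ± 0.737 for MaP R172H/- (adjusted p = 0.445) and -0.96 ± 0.534 for MaP R245W/- tumors (adjusted p = 0.494).

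Fgf2 (chromosome 3, 37402473 to 37464257, plus strand) encodes basic FGF, also without a signal peptide. It was the steadiest ligand, and the group medians of 10.4 CPM in MaP R172H/-, 10.6 CPM in MaP R245W/- and 14.0 CPM in MaP -/- tumors differed by less than the range of any group. The highest tumors were JM833-T1 with 33.0 CPM, YZ7 with 25.4 CPM, JM1126 with 23.1 CPM and JM1233 with 18.5 CPM, and the lowest was JM1564 with 6.74 CPM. The other MaP R245W/- tumors had 9.004 CPM in RM0014 and 10.6 CPM in JM1133. The log2 fold changes were -0.40 for MaP R172H/- over MaP -/- tumors, with an interval of 2 SE from -1.06 to 0.27 (adjusted p = 0.487), -0.27 for MaP R245W/- over MaP -/- tumors, from -1.08 to 0.53 (adjusted p = 0.806), and -0.15 between the mutants, from -0.90 to 0.59 (adjusted p = 0.836). Nudt6 and the antisense RNA Fgf2os overlap Fgf2 on the other strand at medians of 1.40 and 0.507 CPM, against 11.7 CPM for Fgf2, and the strand setting of the counting is not given in the sources used here.

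Fgf7 (chromosome 2, 125876578 to 125934218, plus strand), also called keratinocyte growth factor, was low in every MaP R172H/- tumor. These had 0.939 CPM in YZ6, 1.23 CPM in YZ10, 1.56 CPM in YZ4, 1.68 CPM in YZ2, 1.99 CPM in YZ11, 2.65 CPM in YZ3 and 3.70 CPM in YZ7. MaP -/- tumors had 1.13 CPM in JM836-T1, 1.63 CPM in JM663-T1, 3.10 CPM in JM779-T1, 7.68 CPM in JM833-T1, 8.44 CPM in JM833-T2 and 130.5 CPM (3959 counts) in JM663-T2. The last was 71.1 times the median of the other 17 tumors and 79.9 times the other tumor of its own mouse. MaP R245W/- tumors had 2.51 CPM in JM1233, 0.711 CPM in JM1564, 1.84 CPM in RM0014, 0.993 CPM in JM1133 and 25.4 CPM in JM1126. JM1126 and JM663-T2 therefore stood alone in their groups, and no MaP R172H/- tumor was near them.

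Fgf7 was the 1 gene of the 8 that passed the test for MaP R172H/- over MaP -/- tumors, where 8.4% of 20954 genes did (4.73% lower). It was lower, with a log2 fold change of -3.68 ± 1.02 (SE; means of 1.96 and 25.4 CPM; adjusted p = 0.0403). The groups overlapped, and the size of the difference rested on JM663-T2. Without that tumor the value was -1.14 (adjusted p = 0.216). The call was also lost on leaving out YZ2 (-3.67, adjusted p = 0.0753), YZ3 (-3.79, 0.0672), YZ4 (-3.66, 0.0697), YZ6 (-3.56, 0.0766), YZ10 (-3.59, 0.0742) or YZ11 (-3.71, 0.0693), and without a filter on low counts (adjusted p = 0.0535). DESeq2 gave Fgf7 neither a p nor an adjusted p in any comparison. MaP R245W/- over MaP -/- tumors gave -2.02 ± 1.40 (adjusted p = 0.577), which was 0.50 without JM663-T2. The difference between the mutants was -1.68 ± 1.07 (adjusted p = 0.339), and 0.37 without JM1126.

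Fgf10 (chromosome 13, 118806327 to 118928672, plus strand) was the lowest ligand, with fewer than 10 counts in 10 of the 18 tumors. It reached 26.9 CPM (871 counts) in JM833-T1 and 4.90 CPM in JM833-T2, the 2 tumors of 1 MaP -/- mouse, and 0.145 CPM to 1.09 CPM in the other MaP -/- tumors. MaP R172H/- tumors had 0.0440 CPM to 0.247 CPM except for YZ4 with 1.13 CPM and YZ11 with 1.85 CPM. MaP R245W/- tumors had 0.269 CPM in JM1233, 0 counts in JM1564, which allows up to 0.0927 CPM, 0.172 CPM in RM0014, 0.420 CPM in JM1133 and 3.93 CPM in JM1126. The log2 fold change for MaP R172H/- over MaP -/- tumors was -3.34 ± 1.19 (unadjusted p = 0.0145, adjusted p = 0.103 in edgeR; DESeq2 -3.29, adjusted p = 0.0211), and it was -1.34 without JM833-T1. MaP R245W/- over MaP -/- tumors gave -2.57 ± 1.54 (adjusted p = 0.523). The difference between the mutants, -0.81 ± 1.27 (adjusted p = 0.732), was 1.35 without JM1126.

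None of the 8 genes passed the test for MaP R245W/- over MaP -/- tumors, where edgeR called 0% of 21452 genes, while 11.8% had an unadjusted p below 0.05 and DESeq2 called 427 genes. Of the 8, Fgfr3 alone had an unadjusted p below 0.05 there. The comparisons with MaP -/- tumors share those 6 tumors, so JM663-T2 and JM833-T1 enter both. The median log2 fold change of the 4 receptors and of the 4 ligands was 1.75 and -1.87 for MaP R172H/- over MaP -/- tumors, -0.77 and -1.49 for MaP R245W/- over MaP -/- tumors, and 2.67 and -0.48 between the mutants, beside medians of 0.00, 0.02 and 0.00 over all genes tested. Single tumors weigh on these medians. For MaP R172H/- over MaP -/- tumors, Fgfr2 was 0.06 without YZ4 and Fgfr4 0.18 without YZ7. In the same comparison Fgf7 was -1.14 without JM663-T2 and Fgf10 -1.34 without JM833-T1. With any 1 tumor left out, Fgfr3 there kept 0.98 to 1.86 and Fgf2 -0.68 to -0.07.

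**Figure D3:**
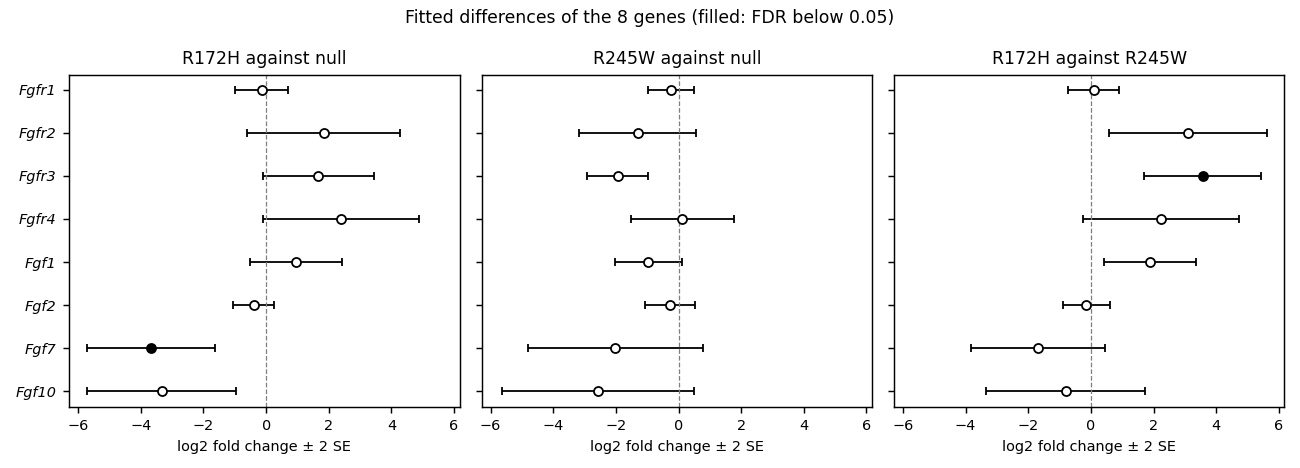
Fitted log2 fold change of the 8 genes with bars of 2 SE in the 3 comparisons, each named as the first group against the second, with null for MaP -/-, and filled points for an adjusted p below 0.05. The 2 filled points are Fgf7 at -3.68 for R172H against null and Fgfr3 at 3.57 for R172H against R245W.

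Single tumors far from the rest were counted for each gene as those at 4 times or more, or at 0.25 times or less, of the median of the other 17. Of the 8 genes, 6 had at least 1 high tumor, where 23.7% of all genes tested did, and 5 had at least 1 low tumor, where 30.8% did. In all there were 22 high and 9 low values, spread over 13 tumors. The low values of Fgfr4 rested on 1 count in YZ11, 2 in JM1126 and 0 in JM779-T1. Those of Fgf10 rested on 1 count in YZ7 and 0 in JM1564, so these low values lay at the count floor. Fgf10 had 6 high tumors, Fgfr2 had 5, Fgf7 had 4, Fgfr3 had 3, Fgf1 and Fgfr4 had 2 each, and Fgfr1 and Fgf2 had none. The highest tumor's ratio was 102 for Fgf10, 71.1 for Fgf7, 48.6 for Fgfr2, 38.7 for Fgfr4, 21.0 for Fgfr3 and 7.59 for Fgf1. Ratios this high were found in 0.876%, 1.26%, 1.86%, 2.32%, 4.27% and 12.1% of all genes tested, respectively. The ratios of Fgf10 and Fgfr4 were taken over low medians, 0.263 and 0.376 CPM.

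The 22 high values lay in 9 of the 18 tumors. YZ4 was high for 5 of the 8 genes, Fgfr2, Fgfr3, Fgfr4, Fgf1 and Fgf10, where 4.40% of all genes tested were high in that tumor. In YZ4 all 4 basal epithelial markers (Krt5, Krt14, Krt17 and Trp63) and 8 of 10 adipocyte markers were also at 4 times or more, with a basal sum of 1821 CPM against 18.4 to 494.8 CPM in the other 17 tumors. YZ7 was high for Fgfr2, Fgfr3 and Fgfr4 and low for Fgf1 and Fgf10, and 5.91% of all genes tested were high and 8.67% low in it. YZ7 also had the highest summed pericyte and smooth muscle markers, 2307 CPM. Of the 4 basal epithelial markers, 2 were at 4 times or more in YZ7, Krt5 at 34.5 CPM and Trp63 at 188 CPM. Its Trp63 was the highest of the 18 tumors, while Krt14 and Krt17 did not reach 4 times. YZ11 was high for Fgfr2, Fgf1 and Fgf10 and low for Fgfr3 and Fgfr4, with the highest summed epithelial markers and 7 of 10 adipocyte markers at 4 times or more. JM833-T1 was high for Fgfr2, Fgf7 and Fgf10, and JM833-T2, JM663-T2 and JM1126 were each high for Fgf7 and Fgf10. The part of these cell types in the values was not tested.

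**Figure D4:**
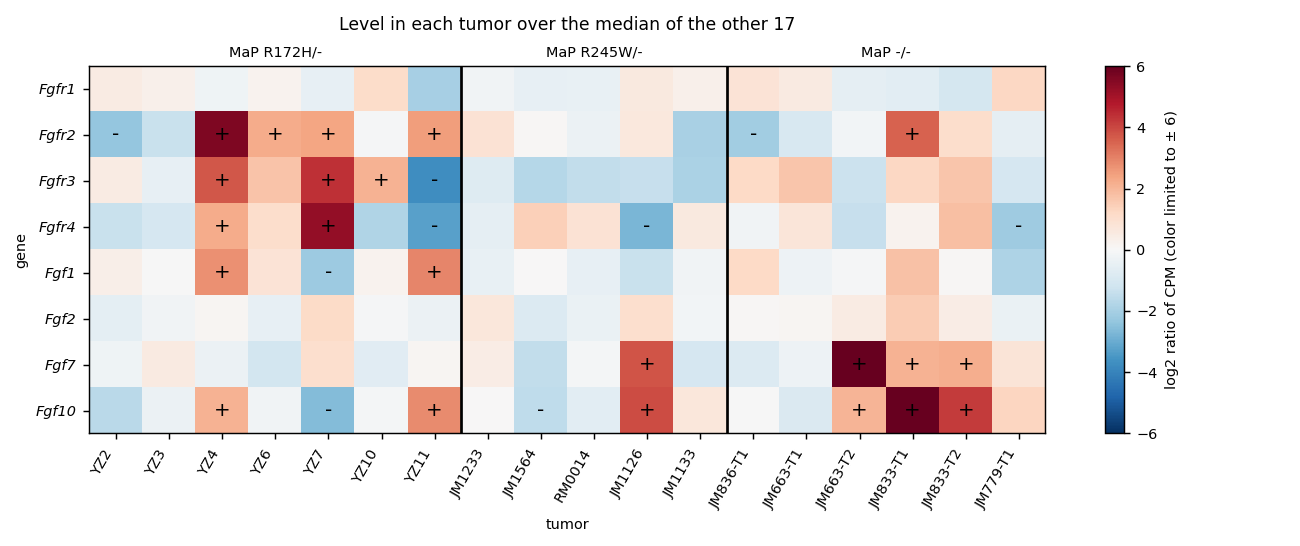
Color map of the log2 ratio of each gene's CPM in a tumor to the median of the other 17, for the 8 genes (rows) and 18 tumors (columns, by group), with + and - for values at 4 times or more and 0.25 times or less, and 0 counts drawn at the limit they allow. The marks sit in 13 tumors, 5 of them + marks in YZ4, and the rows of Fgfr1 and Fgf2 hold none.

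Genes beside the high genes on the chromosome were compared in the same tumors. Neighbors were the tested protein-coding genes whose lower chromosome coordinate lay within 1 Mb of that of the high gene, whatever the strand. In each of the 22 pairs of a high gene and a tumor, these neighbors were compared with the median of the other 17 tumors. Their median ratio lay between 0.706 and 1.49, and it reached 2 in 0 of the pairs. The highest median, 1.49, was that of Fgf1 in YZ11, where 4 of 14 neighbors were at 2 times or more, Pcdh1 at 2.52, Fchsd1 at 2.47, Rell2 at 3.16 and Hdac3 at 2.35 times. These 4 lie on one side of Fgf1, with Diaph1 at 1.99 times beyond them and Arap3 at 0.656 times among them. Nearer to Fgf1 on that side were Dele1 at 1.85, Pcdh12 at 0.460, Rnf14 at 1.60, Gnpda1 at 1.13 and Ndfip1 at 1.01 times. The neighbors nearest to Fgf1, Arhgap26 and Spry4, were at 1.39 and 0.429 times. In YZ4, 2 of 7 neighbors of Fgfr2 were at 2 times or more, the protease gene Htra1 at 3.93 times and the mucin-like gene Dmbt1 at 10.04 times, the latter at 4.17 CPM. The same 2 neighbors were up in JM833-T1, at 2.27 and 7.05 times. In YZ11, Dmbt1 was at 10.97 times (4.56 CPM) and Htra1 at 1.19 times. In YZ6 and YZ7, none of the 7 neighbors of Fgfr2 reached 2 times. Htra1 and Dmbt1 overlap the full annotated extent of Fgfr2, on the other strand. For Fgfr3, 5 of 30 neighbors were at 2 times or more in YZ4 and 5 in YZ7, with the nearest of them, Nicol1, at 8.84 and 9.26 times and the matrix protein gene Spon2 at 14.0 and 12.1 times. Around Fgf7 in JM663-T2, 4 of 21 neighbors were at 2 times or more, among them Dtwd1 at 2.26, Atp8b4 at 4.64 and the histidine decarboxylase gene Hdc at 6.77 times. Atp8b4 and Hdc were also up around Fgf7 in JM1126, at 4.51 and 5.26 times. None of the 5 neighbors of Fgf10 reached 2 times in any of its 6 high tumors.

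The level of each gene was set against the mean log2 CPM of 3 marker lists, epithelial, fibroblast and adipocyte, in 24 relations over the 18 tumors. After Benjamini-Hochberg adjustment 2 of them passed, both with the adipocyte list. Fgf10 rose with the adipocyte markers, with Pearson's r = 0.84 (permutation p = 0.0001, adjusted p = 0.0024) and Spearman's rho = 0.66 (permutation p = 0.00318, adjusted p = 0.0632). Without JM833-T1 and YZ4, the tumors farthest from the median of the markers, r was 0.73 (permutation p = 0.00138). Within the 7 HiSeq tumors r was 0.86 (exact permutation p = 0.0359) and within the 11 NovaSeq tumors 0.84 (permutation p = 0.00185). With the tumors of 1 mouse summed, r was 0.82. Adipoq, the adipocyte hormone adiponectin, had 434 CPM in JM833-T1, 35.2 CPM in JM833-T2, 32.8 CPM in YZ4, 9.75 CPM in YZ11 and at most 3.89 CPM in the other tumors, and those 4 tumors were among the 6 high for Fgf10. JM1126, next after JM833-T2 in Fgf10 at 3.93 CPM, had 0.736 CPM of Adipoq, and 9 of the 10 fibroblast markers at 4 times or more. The summed adipocyte markers ranged from 27.9 to 630 CPM in MaP R172H/-, 32.9 to 80.4 CPM in MaP R245W/- and 41.6 to 6047 CPM in MaP -/- tumors, and Plin1 and Lep, 2 of the 10 markers, both had 0 counts in JM1564, JM1133 and JM836-T1. The part of adipocytes in these values was not tested.

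Fgfr2 also rose with the adipocyte markers, with r = 0.69 (permutation p = 0.00222, adjusted p = 0.0266) and rho = 0.61 (permutation p = 0.0079, adjusted p = 0.0632). Without JM833-T1 and YZ4, r was 0.46 (permutation p = 0.0757), weaker but in the same direction. Within the HiSeq tumors r was 0.82 (n = 7, exact permutation p = 0.0121) and within the NovaSeq tumors 0.83 (n = 11, permutation p = 0.00264). The adjusted p rose above 0.05 on leaving out YZ4, YZ11, JM1133, JM836-T1 or JM833-T1, with r between 0.64 and 0.67. Fgf7, Fgf10 and Fgf2 had r = 0.58, 0.53 and 0.58 with the fibroblast list, with adjusted permutation p = 0.0928, 0.0928 and 0.0686. Within the NovaSeq tumors these r were 0.56, 0.54 and 0.71 (n = 11). Within the HiSeq tumors they were -0.21, 0.05 and -0.19 (n = 7), so the MaP R172H/- tumors did not show this relation. With the epithelial list Fgf1 had r = 0.61 (adjusted permutation p = 0.0665), which was 0.30 without YZ7 and JM779-T1.

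**Figure D5:**
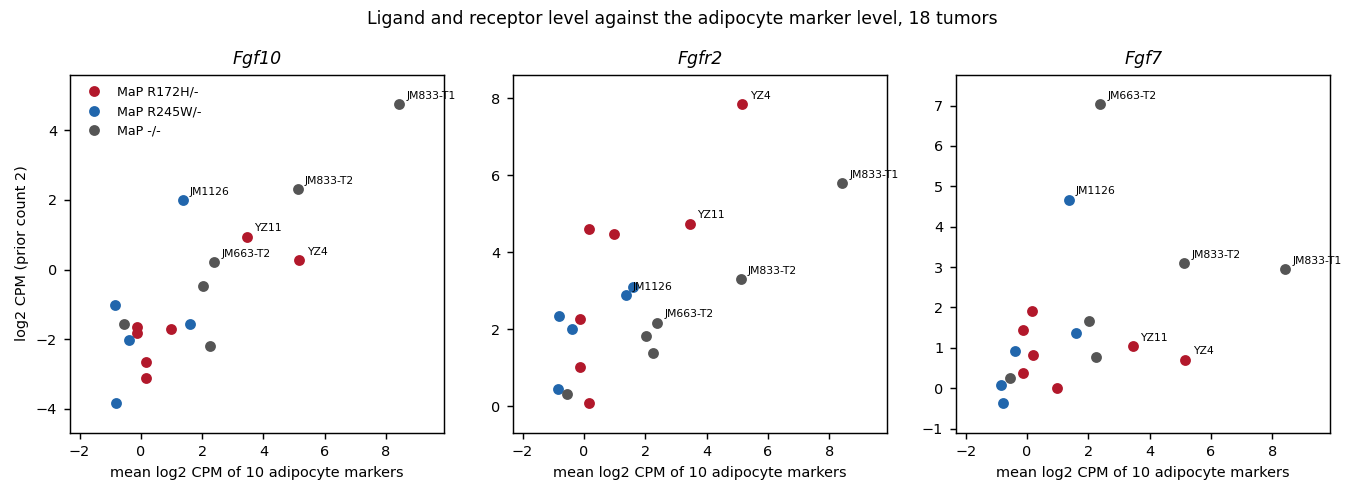
Log2 CPM (prior count 2) of Fgf10, Fgfr2 and Fgf7 against the mean log2 CPM of 10 adipocyte markers, 1 point a tumor, colored by group, with 6 tumors named. Fgf10 climbs along the axis to JM833-T1 (r = 0.84), Fgfr2 does so with YZ4 above the rest (r = 0.69), and the highest Fgf7 value, JM663-T2, sits at a mean log2 CPM of 2.39, below the adipocyte level of YZ11, JM833-T2, YZ4 and JM833-T1 (r = 0.38, adjusted permutation p = 0.249).

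Pairs of the 8 genes were also compared with each other, as a description without a test. Over the 18 tumors, which share platform by group, Pearson's r of log2 CPM was 0.59 for Fgf2 with Fgf7, 0.59 for Fgf2 with Fgf10 and 0.55 for Fgf7 with Fgf10, but -0.15 for Fgf1 with Fgf2 and -0.22 for Fgf1 with Fgf7. The highest value of all pairs was between receptors, 0.67 for Fgfr3 with Fgfr4, both highest in YZ7, and the lowest was -0.48 for Fgfr1 with Fgfr2. With Fgfr2, the gene of their receptor, Fgf7 had r of 0.10 and Fgf10 of 0.46, and Fgf1 and Fgf2 had 0.45 and 0.40. The genes most alike in pattern were picked from 15189 protein-coding genes by the highest Pearson's r over the 18 tumors, which favors high values. For Fgf10 they were Cpa3 (0.93) and Mcpt4 (0.91), proteases of mast cells, and the dipeptidase gene Dpep1 (0.90). These 3 were highest in JM833-T1, as was Fgf10, which had fewer than 10 counts in 10 of the 18 tumors. For Fgf7 the genes most alike were Ccdc82 (0.93), the leptin receptor gene Lepr (0.88) and the heparanase gene Hpse (0.87). For Fgf2 they were Sgcd (0.91), Pde8a (0.89) and Hspa12b (0.88). For Fgf1 they were Sh3rf2 (0.88) and the membrane mucin genes Muc20 (0.86) and Muc4 (0.84). For the receptors they were Tns3 (0.82), Htr1b (0.81) and Zfp62 (0.80) with Fgfr1, Acacb (0.86), Abcc8 (0.85) and Tdrp (0.83) with Fgfr2, Crebbp (0.89), Nat8 (0.88) and Tnfrsf18 (0.86) with Fgfr3, and Psd2 (0.91), Exosc7 (0.90) and Pex11g (0.89) with Fgfr4.

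The rest of the FGF system was read from 7 lists with 95 genes. Of the 14 other secreted FGF ligands only Fgf9, Fgf18 and Fgf22 were tested, and none passed the test in any comparison. Fgf9 reached 5.15 CPM in YZ11, Fgf8 3.35 CPM in YZ7, and Fgf5 3.71 CPM and Fgf23 4.80 CPM in JM1126, where their medians over 18 tumors were 0.645 CPM or less. Fgf18 had log2 fold changes of -0.74, 0.25 and -1.01 in the 3 comparisons, in the order used above. Of the FGF homologous factors, which stay inside the cell, none of the 3 or 4 tested passed, with Fgf11 at 1.09 ± 0.594 for MaP R172H/- over MaP -/- tumors and Fgf13 at -1.54 ± 0.924. None of the 15 heparan sulfate enzymes tested passed in any comparison, nor did the 3 epithelial splicing regulators, of which Esrp2 gave 0.98 ± 0.591 and Esrp1 0.40 ± 0.702 for MaP R172H/- over MaP -/- tumors.

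In the docking and MAPK list, 2 of 19 genes were higher in MaP R172H/- than in MaP -/- tumors, where 3.67% of all genes were. They were Mapk3, which encodes the kinase ERK1, with a log2 fold change of 0.57 ± 0.159 (adjusted p = 0.0403), and Hras, with 0.57 ± 0.161 (adjusted p = 0.0429). Leaving out single tumors ended these calls in 9 and 11 of 13 cases, with adjusted p up to 0.0888 and 0.0903. Among 20 feedback inhibitors and target genes, 2 were higher and 3 lower, where 3.67% of all genes were higher and 4.73% lower. Ccnd1, which encodes cyclin D1, was higher in all 7 MaP R172H/- tumors (283 to 579 CPM) than in any MaP -/- tumor (64.6 to 237 CPM). Its log2 fold change was 1.39 ± 0.307 (adjusted p = 0.0142), and groups apart in this direction were seen for 2.01% of genes. Myc was higher by 1.01 ± 0.215 (adjusted p = 0.0121), with 75.7 to 183 CPM against 43.1 to 78.2 CPM. Both calls held on leaving out each of the 13 tumors. Lower genes were Spred1, a feedback inhibitor of Ras, with -0.74 ± 0.195 (adjusted p = 0.0336), the transcription factor gene Etv1 with -1.87 ± 0.506 (adjusted p = 0.0367) and Fos, named after its value was seen, with -1.04 ± 0.303 (adjusted p = 0.0483). Spred1 and Etv1 lost their calls on leaving out 7 and 6 of the 13 tumors, with adjusted p up to 0.0681 and 0.0899. The Fos call, nearest to the threshold of these 3, was not followed with tumors left out. Over all 79 pathway genes tested, 4 were higher and 3 lower, where 3.67% of all genes were higher and 4.73% lower. Their median log2 fold change was 0.02.

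Between the mutants, 1 of 80 pathway genes tested was higher and 4 were lower in MaP R172H/- tumors, where 2.91% of all genes were higher and 6.49% lower. Sdc3, a heparan sulfate proteoglycan of the cell surface, was higher by 1.11 ± 0.265 (adjusted p = 0.0137), with 62.7 to 182 CPM against 43.6 CPM in JM1233, 52.1 CPM in JM1564, 45.1 CPM in RM0014, 63.8 CPM in JM1126 and 44.3 CPM in JM1133. Spred1 was lower in all 7 MaP R172H/- tumors (113 to 179 CPM) than in any MaP R245W/- tumor (202 to 365 CPM), with a log2 fold change of -0.89 ± 0.196 (adjusted p = 0.00816), and groups apart in this direction were seen for 4.05% of genes. Also lower were Etv1 with -2.23 ± 0.620 (adjusted p = 0.0310), Dusp5, a phosphatase of ERK, with -2.01 ± 0.602 (adjusted p = 0.0429) and Fgfbp3, an FGF carrier protein, with -1.43 ± 0.440 (adjusted p = 0.0486). Dusp5 had 265 CPM in JM1126, and without it the value was -0.73 (adjusted p = 0.367). Etv1 was -1.42 without JM1564 (adjusted p = 0.136), and Fgfbp3 lost its call on leaving out any 1 of 15 of the 18 tumors. No pathway gene passed for MaP R245W/- over MaP -/- tumors. The smallest p there were those of Map2k2 at 0.59 ± 0.178 and Hras at 0.47 ± 0.167, both with adjusted p = 0.360, and the gene of beta-Klotho, Klb, a co-receptor of endocrine FGFs, had -3.62 ± 1.42 (adjusted p = 0.382).

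The cell type lists moved with these comparisons as follows. For MaP R172H/- over MaP -/- tumors, 0 of 10 adipocyte markers passed, with a median log2 fold change of -2.91 (-0.16 without JM833-T1), while 3 of 10 fibroblast markers (Lum, Pdgfra and Fap, named after their values were seen; the list's median was -0.56, with 4 of 10 above 0), 1 of 8 endothelial and 4 of 10 immune markers were lower, and no marker of the epithelial, basal epithelial, pericyte and smooth muscle or skeletal muscle lists passed, where 4.73% of all genes were lower. Between the mutants, 1 of 10 fibroblast, 1 of 8 pericyte and smooth muscle, 3 of 10 immune and all 7 tested skeletal muscle markers were lower in MaP R172H/- tumors, where 6.49% of all genes were, and no marker of the adipocyte, epithelial, basal epithelial or endothelial lists passed. The summed skeletal muscle markers were 6058 CPM in JM1233, a median of 149 CPM in MaP R245W/- and 26.6 to 88.1 CPM in MaP R172H/- tumors, and without JM1233 the number called was 4 of 7. No marker passed for MaP R245W/- over MaP -/- tumors, where the adipocyte list had a median of -6.29. JM833-T1 alone held 6047 CPM of the summed adipocyte markers, against group medians of 111.3 CPM in MaP -/- and 42.6 CPM in MaP R245W/- tumors, and without it the median was -3.07. The part of fibroblasts in the Fgf7 values was not tested.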

How the data were processed

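RNA from 18 mouse mammary tumors was sequenced as stranded libraries. Per the study's methods and the submitters' processing notes, the authors checked reads with FastQC 0.11.9, aligned them to GRCm39 with STAR 2.7.10b and summarized the GENCODE M34 genes with RSEM 1.3.3. For 57126 genes the deposited table gives raw counts in whole numbers. The strand setting is not given in the sources used here.

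Counts were normalized by TMM in edgeR 4.0.16 (R 4.3.3). Genes passing filterByExpr were tested with the quasi-likelihood test and Benjamini-Hochberg adjustment, and called at an adjusted p below 0.05. MaP R172H/- (7) and MaP R245W/- (5) tumors were each compared with the 6 MaP -/- tumors, which come from 4 mice and were treated as separate samples. The mutants were compared in a fit of all 18. The comparison groups were taken from the labels. DESeq2 1.42.0, other normalizations, filters and left-out tumors were alternatives, and the set without the 3 tumors low in Epcam and the marker lists with 1 tumor left out were added after seeing the data. Scripts were tested on simulated data. Log2 CPM used a prior count of 2. Correlations had two-sided permutation p with 100000 resamples (scipy 1.17.1), exact for 7 tumors. Positions and exon lengths are from GENCODE M39, which matched 56620 genes.

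The 8 genes and all lists were chosen with earlier results of these data known. Named were the 8 genes, at most 4 called genes per pathway list and comparison (else those with the smallest p), the 3 genes most alike per gene, and neighbors at 2 times or more. A total of 23113578 to 37365062 counts stood behind each tumor, and limits from 0 counts (3 counts) cover counting error only.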

Additional observations from a re-analysis of the deposited data

Results flagged for a closer look

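In each group the highest and lowest tumor of each of the 8 genes was compared with the rest of its group, by the gap to the nearest tumor as a share of the group's range. Of the 24 gene and group pairs, 9 held a tumor past the 95% limit of Dixon's test, in 5 genes and 5 tumors, where 15.6% of all pairs of a tested gene and a group did. Chance gives about 1 in 20 groups for normally distributed values, and CPM values need not be. For Fgfr2 they were YZ4 with 229.8 CPM (next 26.7 CPM) and JM833-T1 with 55.2 CPM (next 9.79 CPM). For Fgfr4 it was YZ7 with 14.6 CPM (next 1.79 CPM). For Fgf2 they were YZ7 with 25.4 CPM (next 12.3 CPM) and JM833-T1 with 33.0 CPM (next 15.8 CPM). For Fgf7 they were JM663-T2 with 130.5 CPM (next 8.44 CPM) and JM1126 with 25.4 CPM (next 2.51 CPM). For Fgf10 they were JM833-T1 with 26.9 CPM (next 4.90 CPM) and JM1126 with 3.93 CPM (next 0.420 CPM).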

How the results depend on the processing

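Of 539 fold changes of the 8 genes under the alternatives, 507 kept their direction and their side of the threshold, 11 lost a call, 4 gained one and 17 changed sign. Only Fgf7 for MaP R172H/- over MaP -/- tumors and Fgfr3 between the mutants were called at the start. The lost calls are therefore all theirs, and the other results had no call to lose. Leaving out 1 tumor ended the Fgf7 call in 7 of 13 cases and the Fgfr3 call in 2 of 18. Without the 3 tumors low in Epcam, chosen after seeing the data, Fgfr1 was 0.23 and Fgfr4 -0.08 for MaP R172H/- over MaP -/- tumors, Fgfr1 was 0.06 for MaP R245W/- over MaP -/- tumors, and Fgfr4 was -0.15 between the mutants. With 1 tumor left out, the ranges for MaP R172H/- over MaP -/- tumors were -0.36 to 0.16 for Fgfr1 (0.02 without YZ11). For MaP R245W/- over MaP -/- tumors they were -0.41 to 0.03 for Fgfr1, -1.55 to 0.28 for Fgfr2, -0.26 to 0.72 for Fgfr4 (-0.15 without JM779-T1, -0.07 without JM663-T2), -0.54 to 0.06 for Fgf2 and -4.08 to 0.50 for Fgf7. Between the mutants they were -0.14 to 0.26 for Fgfr1, -0.44 to 0.13 for Fgf2, -1.96 to 0.37 for Fgf7 and -1.52 to 1.35 for Fgf10. Genes called for MaP R172H/- over MaP -/- tumors numbered 1760, and 3447 with DESeq2, 1059 among protein-coding genes, 1126 with tumors of 1 mouse summed, 287 with an absolute log2 fold change above 2, and 1067 to 1866 with 1 tumor left out. Of the 8 genes 1 was called, 0 without a filter on low counts, and 0 to 1 with 1 tumor left out. For MaP R245W/- over MaP -/- tumors 0 genes were called, 427 with DESeq2 (1 of the 8), 2 in 1 fit of 3 groups, 1 without the tumors low in Epcam and 0 to 3 with 1 tumor left out. Between the mutants 2114 were called, 3690 with DESeq2, 1401 with at least 10 counts in every tumor, 875 among protein-coding genes, 526 above a log2 fold change of 2 and 1525 to 2362 with 1 tumor left out. Of the 8 genes 1 was called, 3 with DESeq2, 0 with the 12 mutant tumors alone and 0 to 1 with 1 tumor left out. Relations with marker lists past the threshold numbered 2, and 1 to 4 with 1 tumor left out. The 31 single-tumor values far from the rest were 19 at a threshold of 6 times. The cause of these changes was not tested. Fgfr4 and Fgf10, with fewer than 10 counts in 7 and 10 tumors, are limited by depth. No paired analysis was possible because the groups came from different mice, and the labels pair no tumor of one group with a tumor of another.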
